A study of Mus musculus with 20 samples.

Results

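Trio, Herc2, Erbb4, Trhde, Stxbp6 and Hdac8 are 6 of the 53028 genes in a count table of mouse liver RNA, and each spans at least 182 kb of the genome. They were chosen because they are long, because their RNA was much higher in livers given an antisense oligonucleotide against the small nucleolar RNA SNORA73, and because they lie outside the cell junction and phosphatase families. Their length and the difference between the LNA groups are therefore given as a description, and counts of them past a threshold on this contrast support nothing. All 6 were found in the table by symbol, and each matched 1 row.

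The livers came from male C57BL/6J mice fed standard chow, and total RNA and polysome RNA were sequenced from each of 10 mice, which gave 20 libraries. The 5 control mice (numbers 1, 2, 3, 8 and 9) received an LNA against GFP, a jellyfish protein that these mice do not encode, and the other 5 (numbers 4, 6, 10, 11 and 12) an LNA against SNORA73. An LNA is a short antisense oligonucleotide with locked, nuclease-resistant bases at its ends. For the chow diet experiment the study's methods give 3 intraperitoneal injections of 3 mg/kg on alternate days from 8 weeks of age and collection 2 days after the last. For liver ribosomes they give male mice of 10 weeks, with cycloheximide injected into the tail vein before collection, and the sources do not say which age applies here. In the labels the target is spelled snoRA37 and Snora37kd, while the series' title and the study's methods name SNORA73, so these libraries are called SNORA73 LNA here. Whole liver was used, and in bulk RNA fewer cells of a type and less RNA per cell cannot be told apart.

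Trio is a guanine nucleotide exchange factor that loads small GTPases such as Rac1 with GTP and so acts on the actin cytoskeleton and on cell shape. Herc2 is a very large HECT-type ubiquitin ligase with roles in DNA repair and protein turnover. Erbb4 is the receptor tyrosine kinase for neuregulins, Trhde is a membrane ectopeptidase that degrades thyrotropin-releasing hormone, Stxbp6 (amisyn) binds syntaxins and restrains the assembly of SNARE fusion complexes, and Hdac8 is an X-linked class I deacetylase that removes acetyl groups from the cohesin subunit Smc3. Their known roles are unlike each other. Long genes have long introns and take longer to transcribe, and length was one of the grounds on which these were chosen.

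The study lists 2 oligonucleotides against SNORA73. Their sequences are shown because they define the treatment, with locked bases in capitals.
SNORA73 LNA 1: AAGTCgtaggaatatGCAGG
SNORA73 LNA 2: GACTCtgagaagtcgTAGGA
Each is 20 bases long with 5 locked bases at each end, and they share a run of 11 bases, aagtcgtagga. The labels do not say which of them the sequenced mice received. The study describes its further work in mice as done with the second of them, without naming the sequenced livers. Snora73a and Snora73b themselves reached no more than 4 counts in a library, and knockdown of the target was not checkable in these poly(A)-selected libraries. The host transcript Snhg3 ranged from 3.85 to 5.10 CPM (counts scaled to a common library size) in the GFP LNA mice and from 3.25 to 7.39 in the SNORA73 LNA mice in total RNA, and the groups overlapped.

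Positions are those of the RefSeq annotation of GRCm38.p6. Trio lies on the minus strand at chr15:27730649-28025848 and spans 295.2 kb. Herc2 lies on the plus strand at chr7:56050124-56231800 (182 kb), and the other 4 lie on the minus strand: Erbb4 at chr1:68031884-69108576 (1077 kb), Trhde at chr10:114398820-114802302 (403 kb), Stxbp6 at chr12:44852484-45075118 (223 kb) and Hdac8 at chrX:102284638-102505381 (221 kb). As chosen, these spans were longer than those of 95.2% (Herc2) to 99.9% (Erbb4) of the genes tested in total RNA. RefSeq places between 1 and 3 other gene models inside each span, and the 4 of those models that the table holds reached no more than 3 counts in a library.

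The sequences upstream of Trio and Herc2 are shown because these 2 genes followed each other most closely across the mice in total RNA. Both are from RefSeq, GRCm38.p6, 250 bases ending just before a transcript start, read 5′ to 3′ on the gene's strand, with matches to the motifs named below in capitals.
Trio, minus strand, chr15:28025849-28026098: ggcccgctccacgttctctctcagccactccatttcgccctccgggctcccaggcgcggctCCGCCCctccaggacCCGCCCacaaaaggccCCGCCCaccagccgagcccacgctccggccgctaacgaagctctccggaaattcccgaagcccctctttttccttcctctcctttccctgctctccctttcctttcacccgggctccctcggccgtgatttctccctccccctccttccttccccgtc
Herc2, plus strand, chr7:56049905-56050154: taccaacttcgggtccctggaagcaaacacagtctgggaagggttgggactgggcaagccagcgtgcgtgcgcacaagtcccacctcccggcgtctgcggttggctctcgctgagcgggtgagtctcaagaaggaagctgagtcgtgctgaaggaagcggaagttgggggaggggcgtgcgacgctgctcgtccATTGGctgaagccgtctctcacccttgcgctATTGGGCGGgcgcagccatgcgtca
Searched on both strands from 250 bases before to 50 after the start, the Trio window held 3 copies of the GC box GGGCGG, read here as CCGCCC, and the Herc2 window held 1 GC box overlapping 1 of its 2 CCAAT boxes (letters CCAAT, read here as ATTGG). GC boxes stood in 2 of the 6 genes' windows and in 35.7% of all 32851 promoter windows, and CCAAT boxes in 2 of 6 (Herc2 and Hdac8) against 37.4%. The TATA box (TATAAA) stood in 1 window, that of Hdac8, against 13.6% of all. No window held the E-box CACGTG, the CRE TGACGTCA, the ETS site CCGGAAGT or the AP-1 site TGANTCA, which stood in 7.15%, 1.79%, 3.89% and 7.81% of all windows. GC content ran from 49.7% (Hdac8, 6 CpG dinucleotides) to 66.7% (Trio, 28), against a median of 52.7% and 7 CpGs over all windows. Herc2 has a further window in the table, and the first is the one counted here.

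Levels are given as CPM scaled by the trimmed mean of M values (TMM), which are not corrected for gene length and so compare samples and not genes. Total counts ranged from 20005389 to 42023390 in the total RNA libraries and from 14852951 to 33824659 in the polysome RNA libraries. GFP LNA mouse 9 stood apart from the other control mice for most of these genes, and the study itself left out 1 mouse per group that it did not name. Values are therefore given with all 10 mice and also without mouse 9 (GFP LNA) and mouse 10 (SNORA73 LNA), the pair taken here as the ones left out. By its reporting summary, the study dropped its mice for not clustering with their group in principal component analysis. Dropping mice on such grounds can itself widen the difference between groups, which limits all values without mice 9 and 10.

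Trio, the exchange factor, was at 0.858, 0.562, 1.08, 0.526 and 5.03 CPM in total RNA of GFP LNA mice 1, 2, 3, 8 and 9, and at 4.36, 3.73, 4.02, 5.11 and 3.57 CPM in SNORA73 LNA mice 4, 6, 10, 11 and 12. Of the control mice, 4 lay below every SNORA73 LNA mouse and mouse 9 lay above all but mouse 11. The group means were 1.61 ± 1.92 and 4.16 ± 0.61 CPM (SD, n = 5 each), a log2 fold change of 1.39 (SE 0.53), and 2.43 (SE 0.24) without mice 9 and 10.
In polysome RNA, Trio was at 0.446, 0.591, 1.11, 0.793 and 3.07 CPM in the control mice and at 3.76, 3.19, 2.43, 4.37 and 2.63 CPM in the SNORA73 LNA mice, in the same order of mice. Mouse 9 again lay among the SNORA73 LNA mice, and the log2 fold change was 1.44 (SE 0.45) over 10 mice and 2.24 (SE 0.32) without mice 9 and 10.

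Herc2, the ubiquitin ligase, had 129 to 596 counts per total RNA library. It was at 4.53, 3.91, 5.72, 5.22 and 16.4 CPM in total RNA of the control mice, and at 19.2, 20.6, 18.5, 25.3 and 19.4 CPM in the SNORA73 LNA mice. The groups did not overlap, although mouse 9 stood nearer to the SNORA73 LNA mice than to the other controls. The means were 7.15 ± 5.20 and 20.6 ± 2.8 CPM, and the log2 fold change was 1.54 (SE 0.34), or 2.12 (SE 0.14) without mice 9 and 10.
In polysome RNA, Herc2 was at 7.74, 7.95, 6.26, 5.39 and 18 CPM in the controls and at 28.9, 24.6, 18.6, 48.7 and 18.4 CPM in the SNORA73 LNA mice. The groups again did not overlap, mouse 9 lying just below mouse 12, and the log2 fold change was 1.62 (SE 0.34), or 2.14 (SE 0.27) without mice 9 and 10.

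Erbb4, the neuregulin receptor, had 2 to 35 counts per total RNA library. It was at 0.385, 0.317, 0.381, 0.486 and 1.05 CPM in the controls and at 1.33, 0.760, 0.101, 1.45 and 1.24 CPM in the SNORA73 LNA mice. Mouse 9 was the highest control, and SNORA73 LNA mouse 10, with 2 counts, was the lowest of all 10 mice, so that the groups overlapped only through these 2 mice. The log2 fold change was 0.93 (SE 0.51), and 1.60 (SE 0.28) without them. In polysome RNA Erbb4 had 1 to 8 counts in the controls and 0 to 12 in the SNORA73 LNA mice, with mice 4, 10 and 12 at 0, a count that allows up to 3. It did not pass the filter on low counts there, and no difference between the LNA groups is given.

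Trhde, the ectopeptidase, had 6 to 37 counts per library. In total RNA it was at 0.444, 0.342, 0.449, 0.243 and 0.506 CPM in the controls and at 0.958, 0.933, 0.553, 0.952 and 1.31 CPM in the SNORA73 LNA mice. The groups did not overlap, mouse 9 at 0.506 CPM lay close to the other controls, and mouse 10 was the lowest of its group. The log2 fold change was 1.24 (SE 0.28), and 1.46 (SE 0.27) without mice 9 and 10.
In polysome RNA, Trhde was at 0.720, 0.999, 0.554, 0.370 and 0.498 CPM in the controls and at 0.763, 1.11, 1.35, 1.47 and 2.71 CPM in the SNORA73 LNA mice, and only control mouse 2 overlapped the other group. The log2 fold change was 1.21 (SE 0.39), and 1.18 (SE 0.46) without mice 9 and 10. Erbb4 and Trhde each passed the filter in total RNA with 5 libraries, 1 of GFP LNA and 4 of SNORA73 LNA mice, so that their presence among the genes tested was itself tied to the SNORA73 LNA group.

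Stxbp6, the syntaxin-binding protein, was at 2.34, 2.30, 3.57, 4.13 and 9.47 CPM in total RNA of the controls and at 7.55, 8.54, 11.3, 6.56 and 10.01 CPM in the SNORA73 LNA mice. Mouse 9 lay above 3 of the SNORA73 LNA mice and the other controls below all of them. The log2 fold change was 1.03 (SE 0.35), and 1.42 (SE 0.21) without mice 9 and 10.
In polysome RNA, Stxbp6 was at 1.99, 2.09, 2.38, 2.17 and 7.05 CPM in the controls and at 5.93, 9.52, 5.12, 4.2 and 4.03 CPM in the SNORA73 LNA mice. Mouse 9 was second only to SNORA73 LNA mouse 6, and the log2 fold change was 0.88 (SE 0.37), or 1.47 (SE 0.28) without mice 9 and 10.

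Hdac8, the cohesin deacetylase, was at 0.651, 0.879, 1.14, 1.54 and 3.07 CPM in total RNA of the controls and at 3.14, 2.32, 3.47, 3.51 and 3.50 CPM in the SNORA73 LNA mice. Only mouse 9 overlapped the SNORA73 LNA mice, and it lay above mouse 6. The log2 fold change was 1.15 (SE 0.35), and 1.58 (SE 0.26) without mice 9 and 10.
In polysome RNA, Hdac8 was at 0.548, 0.50, 0.832, 1.43 and 2.65 CPM in the controls and at 2.76, 3.19, 1.66, 4.59 and 4.39 CPM in the SNORA73 LNA mice. Mouse 9 lay above mouse 10, and the log2 fold change was 1.48 (SE 0.45), or 2.19 (SE 0.35) without them.

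**Figure D1:**
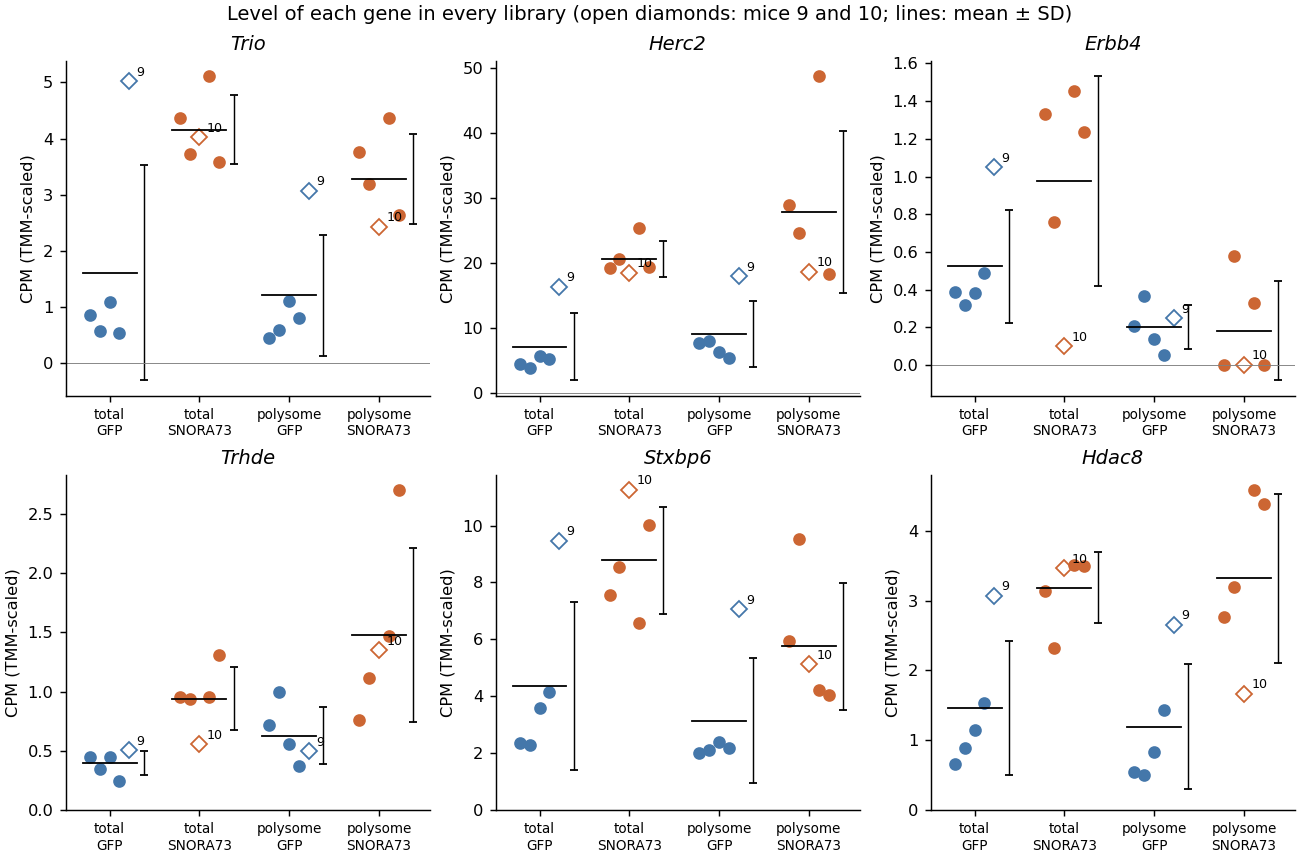
TMM-scaled CPM of each gene in every library (vertical axis, linear), by RNA and LNA group, with 1 point per mouse, open diamonds for GFP LNA mouse 9 and SNORA73 LNA mouse 10, and lines for the mean ± SD of 5 mice. In total RNA mouse 9 was the highest control for all 6 genes, for Trio at 5.03 CPM against 0.526 to 1.08 CPM in the other 4.

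Across the set, mouse 9 was the highest control in total RNA for 6 of 6 genes and in polysome RNA for 4 of 6, whereas it was the highest control for 29.6% and 24.98% of all genes tested in these RNAs. It lay above the lowest SNORA73 LNA mouse for 4 genes in each RNA. In polysome RNA these included Erbb4, for which SNORA73 LNA libraries stood at 0 counts. The share over all genes was not counted for this overlap, so nothing is read from it. In the order of the 4 group means, the total and polysome RNA of the same LNA group stood next to each other for Trio, Herc2, Trhde, Stxbp6 and Hdac8, and for all 6 genes their ranges over 5 mice overlapped.

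To be counted as higher, a gene needed a Benjamini-Hochberg false discovery rate (FDR) under 0.05 in edgeR's quasi-likelihood test over all genes, and a log2 fold change of 0.5 or more. With 10 mice, 0 of the 6 genes were counted as higher in total RNA, where 0.0303% of all genes were, and 0 of the 5 tested in polysome RNA, where 0.0153% were. At an unadjusted p under 0.05 and a log2 fold change above 0 there were 5 of 6 and 5 of 5, against 4.96% and 8.12% of all genes. limma-voom also counted 0 and 0, against 0.0379% and 0.0153%. DESeq2 counted 2 (Herc2 and Trhde) against 0.288%, and 3 (Trio, Herc2 and Hdac8) against 1.66%. In total RNA it gave Trio no p-value, so Trio was not tested there. Without mouse 9 alone, edgeR counted 4 of 6 in total RNA (Trio, Herc2, Stxbp6 and Hdac8), against 0.374% of all genes, and 2 of 5 in polysome RNA (Trio and Herc2), against 0.116%. With mouse 10 left out as well, the counts were 6 of 6 against 0.553% and 3 of 5 (Trio, Herc2 and Hdac8) against 0.211%. With 10 mice, every SNORA73 LNA mouse lay above every control for 2 of 6 genes in total RNA (Herc2 and Trhde) and 1 of 6 in polysome RNA (Herc2), against 1.1% and 2.11% of all genes tested. After mice 9 and 10 were left out, this held for 6 and 4 genes, against 4.23% and 4.85%. Since the genes were chosen on this contrast, nothing is read from these counts about the genes.

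**Figure D2:**
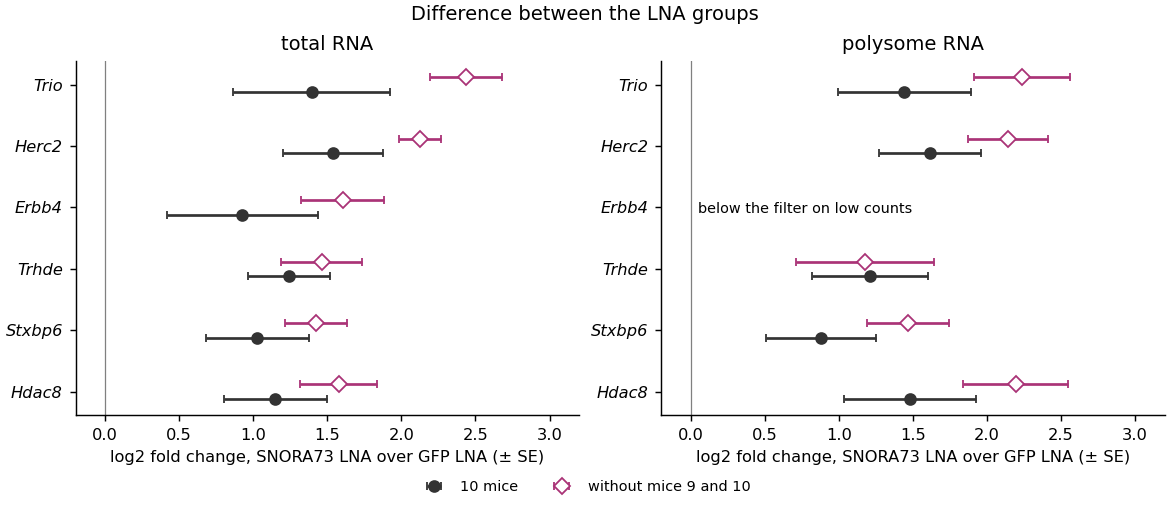
Log2 fold change of SNORA73 LNA over GFP LNA with its SE (horizontal axis) for each gene, in total RNA and polysome RNA, over 10 mice (filled circles) and without mice 9 and 10 (open diamonds). The estimates without these mice were the larger ones except for Trhde in polysome RNA, which was 1.21 with and 1.18 without them.

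Polysome RNA was compared with total RNA over all 20 libraries with the LNA group as a term, a contrast on which the genes were not chosen. It asks how much of each mRNA is found on polysomes relative to the average mRNA, but the 2 RNAs were also recovered differently. By the study's methods, total RNA was taken from the liver lysate with a column and DNase digestion. Polysome RNA was precipitated from gradient fractions, treated with heparinase and cleaned up. In this contrast such handling cannot be told apart from presence on polysomes. At an FDR under 0.05, 2 of the 6 genes differed, against 55.7% of all genes tested. Erbb4 was lower in polysome RNA, with a log2 difference of -1.85 (SE 0.53, edgeR adjusted p = 0.00496) and a lower value in 9 of 10 mice. Trhde was higher, with a log2 difference of 0.60 (SE 0.23, edgeR adjusted p = 0.0333) and a higher value in 9 of 10 mice. Erbb4 rests on at most 12 counts per polysome library and reached the filter through 5 total RNA libraries and 1 polysome library. The filter thus favoured a lower value on polysomes for Erbb4, and its calls here are given as a description.
The other 4 did not pass in that fit. Stxbp6 gave -0.57 (SE 0.27, edgeR adjusted p = 0.0779), Trio -0.40 (SE 0.36, adjusted p = 0.361), Herc2 0.36 (SE 0.25, adjusted p = 0.236) and Hdac8 -0.14 (SE 0.29, adjusted p = 0.702).
With the mouse as a replicate block, which compares the 2 RNAs within each animal, 5 of 6 genes passed, against 65.3% of all genes. Stxbp6 was then lower on polysomes by -0.59 (edgeR adjusted p = 0.00106), Trio lower by -0.35 (adjusted p = 0.0297) and Herc2 higher by 0.35 (adjusted p = 0.0106), while Erbb4 (-1.85, adjusted p = 0.00263) and Trhde (0.58, adjusted p = 0.0246) kept their calls. Hdac8 gave -0.18 (adjusted p = 0.314). limma-voom with the mouse as a block, chosen after the data were seen, called the same 5 genes. Its adjusted p-values for them ran from 0.00111 (Stxbp6) to 0.0139 (Trhde). Over all 13795 genes it called 4749 higher and 4403 lower.
The calls without the block also moved with the tool, the filter and single mice. limma-voom called Erbb4 and Stxbp6 (adjusted p = 0.0476) and not Trhde (adjusted p = 0.0639), against 56.2% of all genes. DESeq2 called Erbb4, Trhde and Stxbp6 (adjusted p = 0.0445), against 57.3%, and edgeR without the filter called Erbb4 and not Trhde (adjusted p = 0.0979), against 26.1%. When mice 9 and 10 were left out, 3 of 6 passed (Erbb4, Herc2 at an adjusted p of 0.0236 and Stxbp6 at 0.0175), against 53.8% of all genes, and Trhde did not (0.0666). Leaving out 1 mouse at a time, the adjusted p of Trhde ran from 0.0217 to 0.106 and missed the threshold without GFP LNA mouse 1 or 2 or SNORA73 LNA mouse 10, 11 or 12. Herc2 passed only without mouse 9, and Stxbp6 only without mouse 9 or mouse 6. Erbb4 passed without any 1 mouse, in the direction that the filter favoured.

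**Figure D3:**
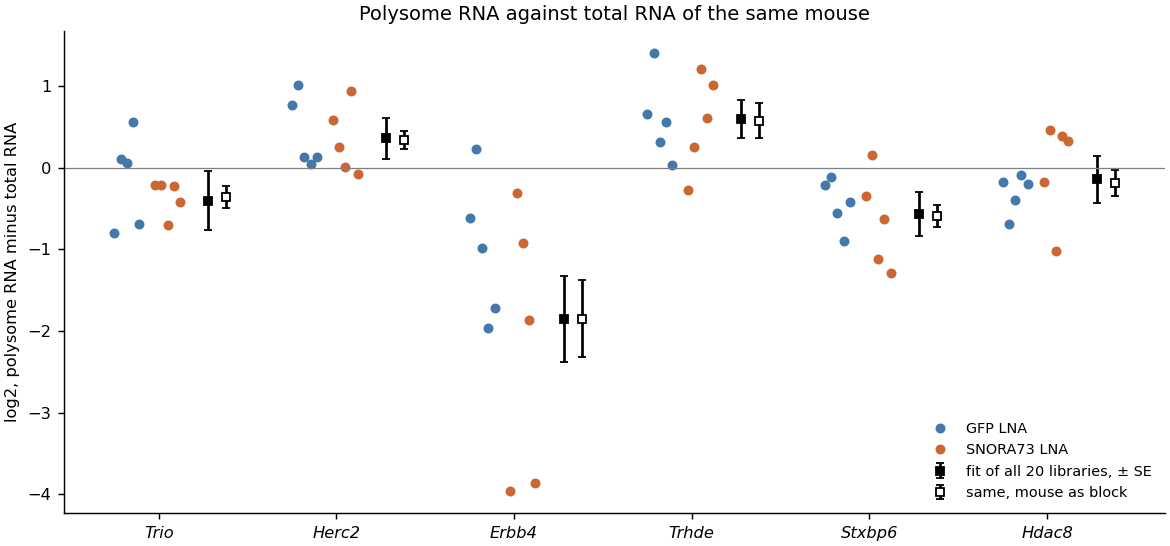
Log2 difference of polysome RNA minus total RNA of the same mouse (vertical axis; log2 CPM with a prior count of 2) for each gene, blue for GFP LNA and orange for SNORA73 LNA mice, beside the fitted difference ± SE without (filled) and with (open) the mouse as a block. Erbb4 lay lowest, Herc2 and Trhde lay mostly above 0, and the lowest Erbb4 values come from libraries with 0 counts.

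The direction for Herc2 and Trhde was the opposite of the median of their span classes. Among the other genes spanning over 200 kb the median log2 difference of polysome over total RNA was -0.33, with 26 higher and 220 lower of 542, and among genes of 100 to 200 kb, the class of Herc2, it was -0.18, with 79 higher and 375 lower of 1006. In genes under 10 kb the median was 0.31. These are medians over genes and are given without a test.
The change of this difference with SNORA73 LNA is the difference between both LNA contrasts and is given as a description. It was 0.05 (SE 0.73) for Trio on the log2 scale in a fit without the mouse as a block. In that fit it was 0.08 for Herc2, -0.02 for Trhde, -0.14 for Stxbp6 and 0.33 for Hdac8. For Erbb4, with its 3 polysome libraries at 0, it was -0.99 (SE 1.08). Within mice, the mean difference of Trio was -0.15 (SD 0.58) with GFP LNA and -0.35 (SD 0.22) with SNORA73 LNA. Over 18 alternative fits the change was above 0 in 13 and below 0 in 5 for Trio and for Herc2. For Stxbp6 it was above 0 in 3 and for Trhde in 4, for Hdac8 in all 18 and for Erbb4 in 0. Over all genes edgeR counted 0 higher and 1 lower in this interaction, with 281 and 120 at an unadjusted p under 0.05.

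Genes were then grouped by span, leaving the 6 out. In total RNA the median log2 fold change of SNORA73 LNA over GFP LNA was 0.08 for the 513 other genes over 200 kb, of which 62.8% were above 0, against 0.00 for genes under 10 kb and 0.01 for all genes. In polysome RNA it was 0.19 for 489 genes over 200 kb, of which 69.1% were above 0, and -0.06 for genes under 10 kb. With 10 mice edgeR counted 0 of the 513 genes over 200 kb as higher in total RNA and 0 of the 489 in polysome RNA. The shares over all genes were 0.0303% and 0.0153%. Without mice 9 and 10 the medians over 200 kb were 0.13 and 0.23. In that fit edgeR counted 22 of 499 of these genes as higher in total RNA (4.41%), against 0.553% of all genes. For polysome RNA it counted 8 of 474 (1.69%), against 0.211%. In total RNA the upper quartile over 200 kb was 0.26, and the chosen genes lay above it, as their selection fixed.
Centred on each gene's mean over 10 mice, the median of the genes over 200 kb minus that of all genes was highest in mouse 9 among all total RNA libraries, at 0.19 on the log2 scale. The other controls lay between -0.17 and -0.02 and the SNORA73 LNA mice between -0.04 and 0.14. In polysome RNA mouse 9 was at 0.08, the other controls between -0.17 and -0.06 and the SNORA73 LNA mice between 0.03 and 0.26. Mouse 9 thus lay above the other controls for long genes as a class, in total RNA above every SNORA73 LNA mouse as well, while SNORA73 LNA mouse 6 lay within the range of the other controls there. The reason was not tested.

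**Figure D4:**
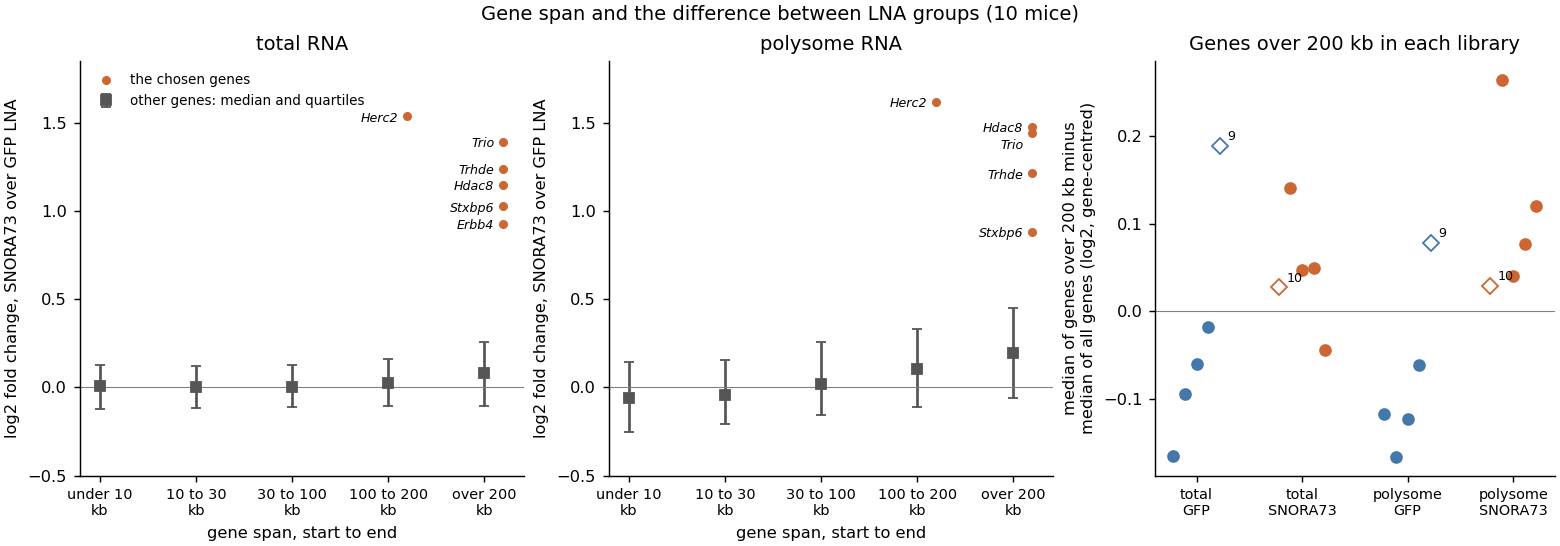
Left and middle, median and quartiles of the log2 fold change of SNORA73 LNA over GFP LNA by gene span (horizontal axis, kb) for all other genes tested, with the chosen genes as points. Right, the median of genes over 200 kb minus the median of all genes in each library (log2, gene-centred), open diamonds marking mice 9 and 10: in total RNA mouse 9, at 0.19, lies above all 9 other mice.

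Among the 435 other genes over 200 kb with a mean of at least 1 CPM, the log2 fold changes in total RNA were highest for Pard3b, a cell polarity scaffold (1.32, SE 0.37), Cdh13, a cadherin anchored by a lipid (1.22, SE 0.27), Pbx3, a homeodomain factor (1.14, SE 0.27), Ptprg, a receptor tyrosine phosphatase (0.96, SE 0.37), and Prkce, a protein kinase C (0.92, SE 0.25). They were lowest for Ulk4 (-0.87, SE 0.22), Cacna1d, a calcium channel subunit (-0.74, SE 0.26), and Adgrv1, an adhesion receptor (-0.53, SE 0.26). With 10 mice none of these 8 passed edgeR's test in total RNA, at adjusted p-values from 0.245 to 0.612. Without mice 9 and 10, Pard3b (1.94, edgeR adjusted p = 0.00433), Ptprg (1.62, adjusted p = 0.00229) and Prkce (1.08, adjusted p = 0.0157) were counted as higher.

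Across the 10 total RNA libraries, log2 CPM of Trio and Herc2 gave a Pearson r of 0.97, Stxbp6 with Hdac8 0.95, Herc2 with Hdac8 0.94 and Herc2 with Stxbp6 0.91. Pairs with Erbb4 ran from 0.31 to 0.62 and Trhde with Stxbp6 and Hdac8 gave 0.65 and 0.67. In polysome RNA, Trio and Herc2 gave 0.90, Trio and Hdac8 0.92, and Trhde with the 4 tested genes from 0.26 to 0.56. The points share libraries and fall into the LNA groups, so these values describe the pattern and carry no test.
Genes with symbols that begin with Gm or end in Rik were not considered for the list that follows. The genes most like the 6 genes' mean z-score over the same 10 libraries were Pard3b (r = 0.985), its relative Pard3 (0.969), Ptprg (0.968), Hao1, the glycolate oxidase of hepatocyte peroxisomes (0.961), Pkp4, a plakophilin of cell junctions (0.954), Exoc6b of the exocyst (0.951), Nlrp6, an inflammasome sensor (0.949), and Parva, an actin-binding parvin (0.945). Spans of these genes were 8.29 kb (Nlrp6), 57.0 kb (Hao1), 164 kb (Parva), 194 kb (Pkp4), 452 kb (Exoc6b), 549 kb (Pard3), 689 kb (Ptprg) and 1004 kb (Pard3b). Whether likeness goes with span was not tested. In polysome RNA their r with the mean z-score ran from 0.731 (Exoc6b) to 0.936 (Pard3). Without mice 9 and 10, 4 of the 8 (Pard3b, Pard3, Ptprg and Hao1) were still among the first 8.

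The same contrast was read over 6 lists of genes related to the chosen ones. In these lists edgeR counted 0 of 97 genes tested as higher and 0 as lower in total RNA, and 0 of 95 either way in polysome RNA. Over all genes it counted 4 of 13195 and 2 of 13060 as higher and 0 as lower, so counts of 0 cannot set the lists apart. At an unadjusted p under 0.05 the lists held 9 and 12 genes. All genes held 654 higher and 487 lower in total RNA, and 1060 and 695 in polysome RNA. Leaving out mice 9 and 10, edgeR also counted 0 of 96 and 0 of 93, where 0.553% and 0.211% of all genes were higher. limma-voom counted 0 in both RNAs. DESeq2 counted 0 in total RNA and 1 in polysome RNA, the ubiquitin ligase Ube3a, where 0.288% and 1.66% of all genes were higher.
For Trio, the 21 tested GTPases, exchange factors and partners had a median log2 fold change of 0.06 in total RNA, against 0.01 for all genes. Vav3, another exchange factor, was at 0.77 (SE 0.32), the Rac exchange factor Tiam2 at 0.45 (SE 0.31) and the Rac effector kinase Pak1 at -0.47 (SE 0.27). For Herc2, the 17 HERC ligases and partners had a median of -0.00. Among them the deubiquitinase Usp20, whose stability Herc2 is known to control, was at 0.57 (SE 0.17), the relative Herc1 at 0.22 (SE 0.16) and the ligase Hace1 at -0.17 (SE 0.16).
For Erbb4, the 12 tested receptors, ligands and adaptors had a median of -0.01. The receptor Egfr was at 0.32 (SE 0.38), and the ligands Nrg4 and Btc were at 0.15 (SE 0.64) and -0.58 (SE 0.28). For Trhde, the 9 aminopeptidases and related genes had a median of 0.03, with Rnpep at 0.14 (SE 0.13), Anpep at 0.14 (SE 0.10) and Rnpepl1 at -0.11 (SE 0.12).
For Stxbp6, the 16 SNARE and syntaxin-binding genes had a median of -0.10, with the syntaxin binder Stxbp4 at 0.19 (SE 0.17), the exocyst subunit Exoc3 at 0.13 (SE 0.13) and the plasma membrane SNARE Snap23 at -0.38 (SE 0.13). For Hdac8, the 22 deacetylases and cohesin genes had a median of 0.08. The cohesin core subunit Smc1a was at 0.48 (SE 0.11, edgeR adjusted p = 0.245), Hdac9 at 0.31 (SE 0.24) and the cohesin acetyltransferase Esco2 at -0.45 (SE 0.40).
Between polysome and total RNA, where 55.7% of all genes passed, these lists held calls in both directions. Lower on polysomes at an FDR under 0.05 were 6 of 21 genes of the Trio list, 8 of 17 of the Herc2 list, 8 of 13 of the Erbb4 list, 3 of 9 of the Trhde list, 6 of 16 of the Stxbp6 list and 8 of 22 of the Hdac8 list. Higher were 3, 2, 0, 3, 3 and 7, in the same order. Over all 13795 genes tested, 3718 were lower and 3964 higher.

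The nearest tested genes on each side of the 6 were not counted as higher or lower in either RNA, for 12 neighbours in all, by edgeR with 10 mice or without mice 9 and 10 or by limma-voom. DESeq2 counted 1 in polysome RNA, Ube3a, which lies 2997 kb from Herc2. Over all genes edgeR with 10 mice counted 0.0303% and 0.0153% as higher. At an unadjusted p under 0.05 in either direction, edgeR gave 2 of the neighbours in total RNA and 3 in polysome RNA. All genes held 654 higher and 487 lower of 13195 in total RNA, and 1060 and 695 of 13060 in polysome RNA. The neighbours' log2 fold changes in total RNA ran from -0.29 (the ribosomal protein gene Rps4x, before Hdac8) to 0.40 (Dap, after Trio). Leaving out mice 9 and 10, Dap had an edgeR adjusted p of 0.0463 at a log2 fold change of 0.49, just under the 0.5 needed to be counted. Dap lies 3199 kb from Trio. The 2 closest neighbours were Gm34121, which ends 0.074 kb before Herc2 (0.22, SE 0.33), and Phka1, a phosphorylase kinase subunit 8.59 kb from Hdac8 (0.15, SE 0.16).

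Markers of liver cell types were summed over each list. The 6 hepatocyte genes summed to between 39610 and 65461 CPM in total RNA, mouse 9 being the lowest, and Alb was at 19294 CPM or more in every library. The 7 sinusoidal endothelial genes summed to 104 to 127 CPM in the controls, mouse 9 being the highest, and to 123 to 142 CPM in the SNORA73 LNA mice. Without mice 9 and 10 the controls ranged from 104 to 110 CPM and did not overlap the SNORA73 LNA mice, and in polysome RNA the ranges were 94.2 to 111 and 119 to 128 CPM over all 10 mice, without overlap. In total RNA 1 of these 7 genes, Stab2, was counted as higher over 10 mice. Stab2 is also the defining marker of the list and ranged from 4.41 to 14.1 CPM in total RNA. Their part in the values of the 6 genes was not tested.
The lists for cholangiocytes (12.5 to 54.6 CPM in total RNA), Kupffer cells (112 to 216), stellate cells (193 to 296), lymphocytes (1.38 to 2.87) and nerve and Schwann cells (0.503 to 1.75) overlapped between the groups in both RNAs, with 0 genes called by edgeR, and mouse 9 was the highest control for the first 4 of these lists in total RNA. No defining marker was at 0 in total RNA, and the lowest were Krt19 for cholangiocytes and Cd3e for lymphocytes, at no more than 0.585 and 0.647 CPM.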

How the data were processed

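Total and polysome RNA of 10 livers were sequenced as paired 100 bp reads after poly(A) selection. The authors trimmed reads with fastp, removed reads aligned to rRNA, quantified Ensembl transcripts with kallisto and summed them with tximport. What the authors deposited are estimated counts for each gene, and kallisto shares reads among similar transcripts. No column was left without a sample.

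Estimated counts were rounded. Genes above 0.5 CPM in 4 or more libraries of a fit entered edgeR 4.0.16 (R 4.3.3; quasi-likelihood, TMM, Benjamini-Hochberg): LNA groups within each RNA, polysome against total RNA with LNA as a term, and their interaction. The tests were run on simulated counts, drawn independently for each library at the same dispersion for every gene. That setting held no mouse effect, so it does not bear on pairing or on a mouse that stands apart. A count of 3 was the floor, and counting error is all that it covers. limma 3.58.1 and DESeq2 1.42.0 were alternatives, as were library totals, no filter, leaving out mice, and the mouse as a block. The mouse number names an animal, so it pairs the libraries; deviations from group means correlated within each mouse at 0.126 to 0.580.

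The study used 4 mice per group. Of 25 pairs, leaving out GFP LNA mouse 9 and SNORA73 LNA mouse 10 gave limma-voom values nearest to its listed fold changes.

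The 6 genes, the lists and the tests were chosen with earlier results of these data known. Named besides were: of each related list, genes that passed or the 2 highest and the lowest; the nearest tested neighbours; the 8 genes most alike; the 5 highest and 3 lowest long genes; and each marker list's first gene. Ube3a is also named for its DESeq2 call, chosen after its values were seen. Spans and promoters are from RefSeq, matched by symbol.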

Additional observations from a re-analysis of the deposited data

Results flagged for a closer look

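Of 24 groups of 5 libraries (6 genes, 2 RNAs and 2 LNA groups), 4 held a mouse far from the rest on the log2 CPM scale by Dixon's ratio, the gap to the nearest mouse divided by the range, which was compared with 0.71. Chance flags about 1 in 20 groups. Herc2 in total RNA of the GFP LNA mice had a ratio of 0.735, with mouse 9 at 16.4 CPM and the others from 3.91 to 5.72. Stxbp6 in polysome RNA of the GFP LNA mice had a ratio of 0.859, with mouse 9 at 7.05 CPM and the others from 1.99 to 2.38. Erbb4 in total RNA of the SNORA73 LNA mice had a ratio of 0.723, with mouse 10 at 0.101 CPM (2 counts) and the others from 0.760 to 1.45. Hdac8 in total RNA of the SNORA73 LNA mice had a ratio of 0.732, with mouse 6 at 2.32 CPM and the others from 3.14 to 3.51.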

How the results depend on the processing

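The number of genes counted as higher or lower with SNORA73 LNA in total RNA was 4 and 0 over 10 mice, 72 and 21 after leaving out mouse 9 (GFP LNA) and mouse 10 (SNORA73 LNA), 38 and 26 with DESeq2, and 10 and 3 without the filter. With library totals 2 were higher. In polysome RNA the counts were 2 and 0, 27 and 4, 217 and 50, and 66 and 6 in the same order, with 0 higher for library totals. Leaving out 1 mouse at a time gave 1 to 49 higher and 0 to 10 lower in total RNA and 0 to 15 higher and 0 to 2 lower in polysome RNA, and the maxima of 49 and 15 higher came without mouse 9. The cause was not tested. The log2 fold changes of the tested genes among the 6 were above 0 in all 16 alternatives in each RNA, from 0.72 (Erbb4, limma-voom) to 2.43 (Trio, without mice 9 and 10) for total RNA, and from 0.62 (Stxbp6, without mouse 6) to 2.24 (Trio, without mice 9 and 10) in polysome RNA. Without the filter Erbb4 gave -0.12 in polysome RNA. Library totals shifted the median over all genes tested from 0.01 to -0.14 (total RNA) and from -0.01 to -0.17 (polysome RNA), and the total RNA median over 200 kb was then -0.06, above that of all genes.

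Between polysome and total RNA, 3964 genes were higher and 3718 lower, 4567 and 4438 with the mouse as a replicate block, and 3615 to 3997 and 3479 to 3791 without 1 mouse. In the interaction, 0 genes were higher and 1 lower. DESeq2 counted 5 and 2, and the replicate block 1 and 0 in edgeR and in limma-voom, the latter chosen after the data were seen. Fits without mice 9 and 10 or with limma-voom counted 0 lower, and fits without 1 mouse 0 to 1 higher and 1 lower. Of the 8 genes most alike, 4 remained among the first 8 without mice 9 and 10. Transcript length in place of span was not run, because the gene table used gives no transcript length.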
